A study of Mus musculus with 8 samples.

Results

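The genes described here are 33 transcripts that mark macrophages, 9 of which are used as marks of an M2-like state, in tumor-bearing mouse back skin. The members were chosen by name, as the rows of the deposited count table whose gene name equalled a listed gene, and all 33 were found among 55247 rows. Of these, 30 passed the filter on low counts, against 11616 genes of the whole table. Clec10a, Mgl2 and Ccl24 did not pass, and their fold changes come from a fit without the filter.

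The series compared the bulk RNA of skin from 4 mice given the vehicle and 4 mice given bexarotene, a retinoid X receptor agonist used against cutaneous T-cell lymphoma. All mice were wild-type females of the strain labelled C57BL/6J, aged 8 weeks, and all received 100 μL of a suspension of EL4 cells under the back skin on Day 0. EL4 is a mouse T-cell lymphoma line of C57BL/6 origin, and it is a transplanted tumor rather than a lymphoma that arose in the skin. The bexarotene group received 0.1 mg of bexarotene intraperitoneally on Day 14, the no-treatment group received the dimethyl sulfoxide and corn oil vehicle, and tissue was taken on Day 16. Nothing in the labels ties a mouse number to a cage, a day or a partner in the other group, so each mouse counts as 1 replicate and p-values measure the spread between mice.

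Macrophages enter tumors as blood monocytes and mature there under colony-stimulating factor 1, whose receptor is Csf1r, or descend from cells that settled in the skin before birth. They take up debris and antibody-coated particles through scavenger and Fc receptors, make most of the complement C1q of a tissue, and digest what they engulf in lysosomes. In the presence of interleukin-4, interleukin-13 or interleukin-10 they shift toward an M2-like state with high mannose receptor and, in mice, arginase 1, a state often described for tumor-associated macrophages.

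Promoter letters are shown for 3 members, C1qb and C1qc as neighbours that encode chains of the same protein and Mrc1 as the most used M2-like marker. The 250 bases before the gene start are from RefSeq on GRCm38.p6, an older build than the GRCm39 of the counts, and capitals mark GAGGAA or its reverse complement TTCCTC, the core of the site bound by PU.1, the protein of the member Spi1. C1qb lies at chr4:136886201-136886450 and C1qc at chr4:136892915-136893164, both on the minus strand, and Mrc1 at chr2:14229164-14229413 on the plus strand.
C1qb: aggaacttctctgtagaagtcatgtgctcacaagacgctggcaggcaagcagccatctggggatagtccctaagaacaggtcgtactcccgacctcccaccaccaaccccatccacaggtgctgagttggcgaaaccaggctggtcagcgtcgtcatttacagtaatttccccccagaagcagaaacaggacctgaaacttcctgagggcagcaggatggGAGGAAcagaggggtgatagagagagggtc
C1qc: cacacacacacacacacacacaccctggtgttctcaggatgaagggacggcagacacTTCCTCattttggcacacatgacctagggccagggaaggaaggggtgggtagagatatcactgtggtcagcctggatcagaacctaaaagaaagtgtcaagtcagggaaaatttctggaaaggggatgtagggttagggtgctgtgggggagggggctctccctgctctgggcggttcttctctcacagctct
Mrc1: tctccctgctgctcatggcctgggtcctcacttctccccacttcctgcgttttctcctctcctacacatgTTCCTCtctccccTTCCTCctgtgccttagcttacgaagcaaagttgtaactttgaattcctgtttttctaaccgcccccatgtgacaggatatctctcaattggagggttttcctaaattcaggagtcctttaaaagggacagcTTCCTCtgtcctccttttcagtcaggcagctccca
Promoters of 22 members were in the table, as 30 sequences. The 6-letter core, searched on both strands, was in 16 of these 30 (53.3%), from 12 members, and in 23.3% of all 32851 promoters of the same length. The longer form GAGGAAGT, which overlaps the core, was in 1 member promoter, that of C1qc, and in 2.44% of all promoters. A match is a description of letters and not a binding site.

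Counts in the 8 libraries summed to between 8518428 and 24020342, and protein-coding genes took between 4.02% and 19.0% of them, so members were read from few reads. The 33 members together had 2760 to 5859 counts per vehicle mouse, but only 990 in Bexarotene 1, 283 in Bexarotene 2, and 2929 and 2644 in the last bexarotene pair. In Bexarotene 2, 24 of the 33 members had under 10 counts. Keratinocyte markers, which should be abundant in skin, summed to 1.37 CPM (counts per 1e6 of a library size scaled with the TMM method) in Vehicle 4, and to between 43.1 and 390.0 CPM in the other mice. T-cell markers, which EL4 cells carry, summed to between 325 and 420 CPM in all mice.

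No member passed the test between the groups. In edgeR's quasi-likelihood test with Benjamini-Hochberg adjustment over 11616 genes, 0 members and 0 of all genes (0%) had an adjusted p under 0.05, and the smallest adjusted p of any gene was 0.976. DESeq2 and limma-voom also called 0 members. At an unadjusted p under 0.05, 4 of the 30 tested members were lower with bexarotene, against 1.30% of all genes, and 0 were higher, against 2.38% of all genes. Those 4 were Zeb2 (chr2:44873644-45007407, minus strand), Arg1 (chr10:24791119-24803382, minus), Mrc1 (chr2:14234203-14336868, plus) and Fcer1g (chr1:171057141-171061934, minus), all protein-coding, with gene positions on GRCm39. That count was 1 without Bexarotene 3 or without both shallow libraries, Bexarotene 1 and 2, and 8 without Vehicle 4. By the sign of the fold change, 23 members were lower and 7 higher, with a median log2 fold change of -0.37, beside 53.5% of all genes lower and a median of -0.03. In bulk tissue, fewer macrophages and less RNA per macrophage cannot be told apart.

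The direction of that median rests on 1 mouse. Vehicle 2 had the highest level of all 8 mice for 24 of the 33 members, and among the tested members it was the highest vehicle mouse for 25 of 30. The median deviation of the tested members from the vehicle mean was 0.94 on the log2 scale in Vehicle 2 and -0.30, -0.01 and -0.58 in Vehicle 1, 3 and 4. Bexarotene 1 to 4 lay at 0.16, -0.28, -0.56 and -0.23, inside the range of the vehicle mice. Without Vehicle 2 the median fold change of the members was 0.07. Vehicle 2 also had the highest keratinocyte sum, 390.0 CPM, and the highest melanocyte sum, 10.5 CPM against 0 to 6.53 CPM elsewhere. The part of these in the members' levels was not tested.

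**Figure D1:**
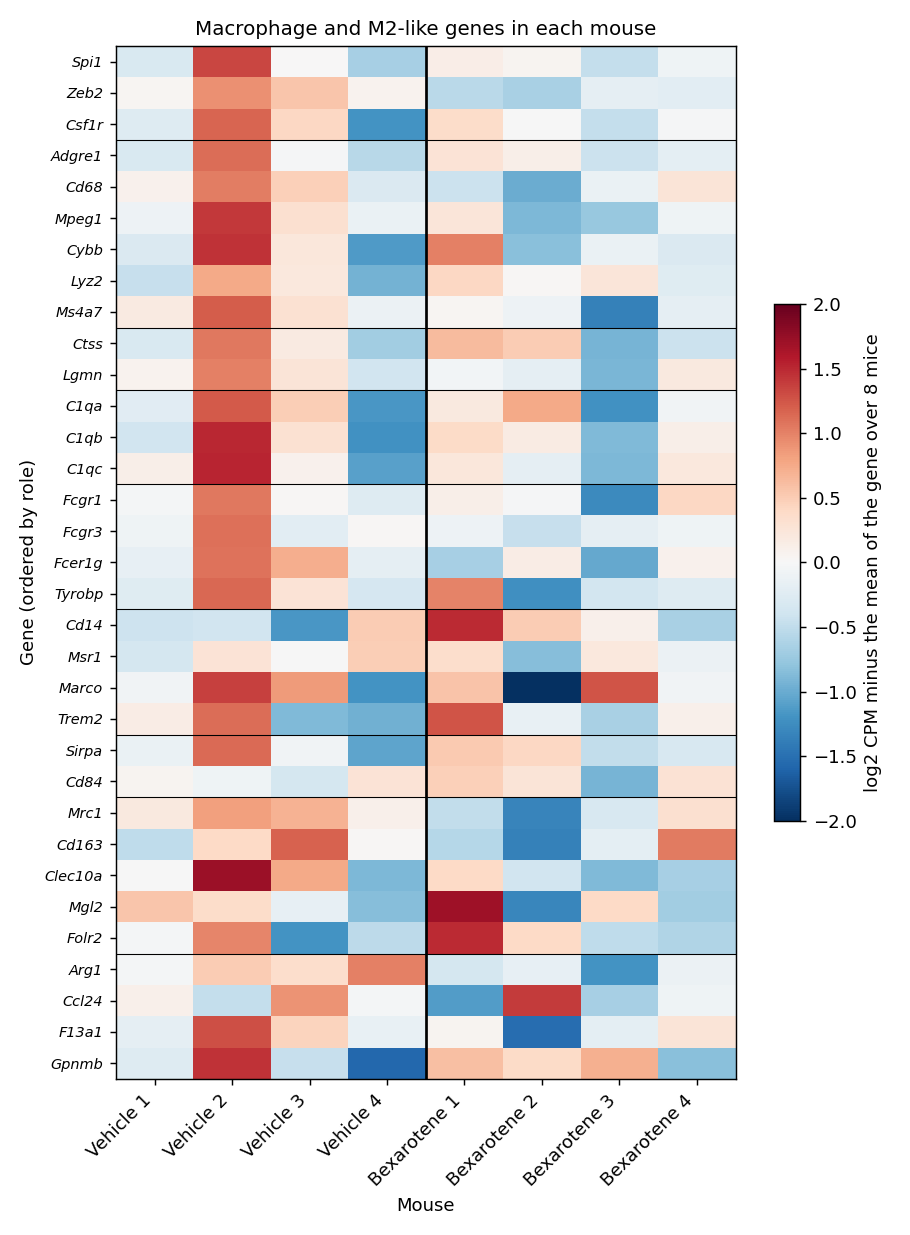
Heat map of the 33 members (y axis, grouped by role) in 8 mice (x axis), coloured by log2 CPM minus the mean of that gene over all mice. The column of Vehicle 2 is red for most members, while the bexarotene columns are mixed.

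Per transcript length, the lysozyme gene Lyz2 was the most abundant member. In TPM, counts divided by transcript length and scaled to a fixed sum over protein-coding genes, the means of 8 mice were 484 for Lyz2, 306 for Ctss, 206 for Lgmn, 192 for Fcer1g, 182 for C1qb and 178 for Cd68. The lowest were Ms4a7 at 9.20, Trem2 at 4.66, Ccl24 at 4.03 and Mgl2 at 3.60 TPM. Of the 32 pairs of neighbours in this order, 28 differed by less than 1 SD of their log2 ratio over the mice. The 4 pairs that differed by more were Lyz2 and Ctss, Ctss and Lgmn, Fcgr3 and F13a1, and Ms4a7 and Trem2. Growth factor receptor Csf1r had 38.9 TPM, Mrc1 32.6, Arg1 28.6, the F4/80 gene Adgre1 25.8 and Cd163 10.5 TPM.

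**Figure D2:**
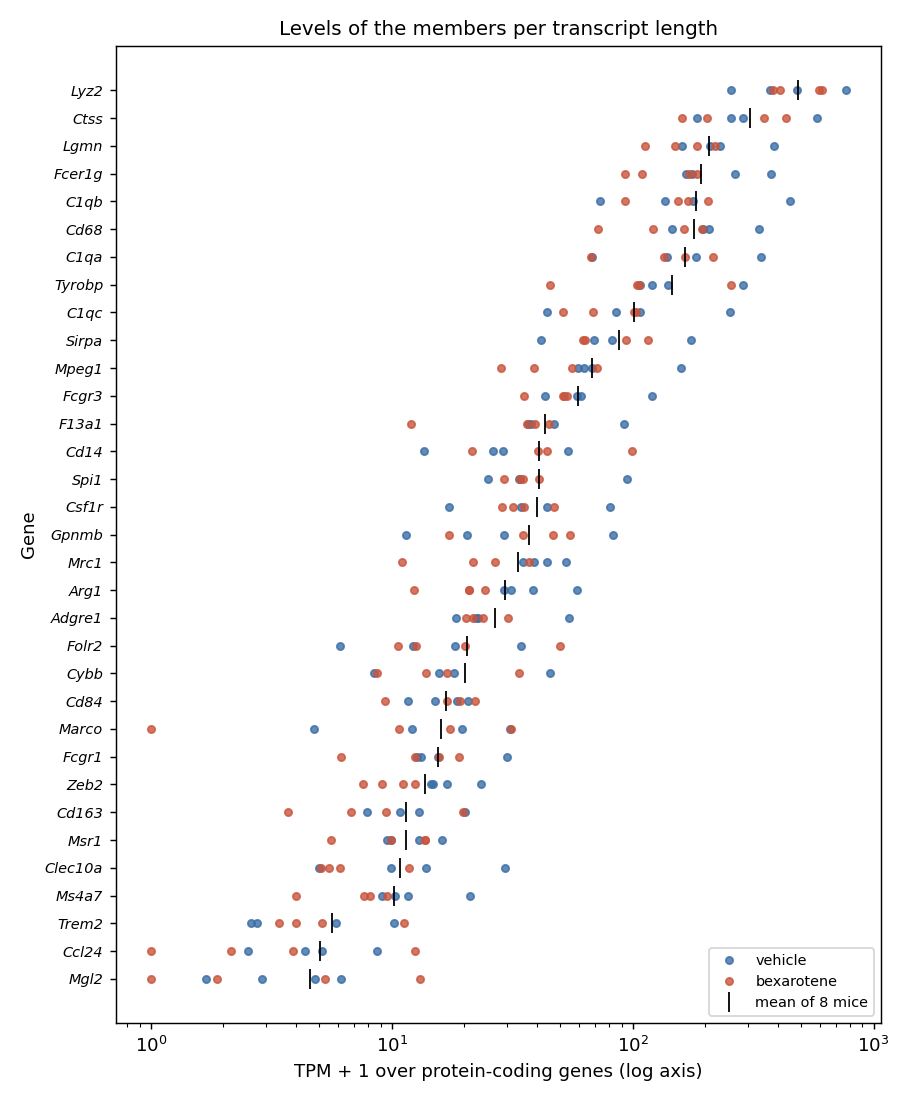
TPM plus 1 of each member on a log axis, ordered by the mean of 8 mice (black ticks), with vehicle mice in blue and bexarotene mice in red. Levels run from 484 TPM for Lyz2 to 3.60 TPM for Mgl2, and neighbouring genes overlap.

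Among the lineage regulators, Zeb2 had the smallest p of all members. Zeb2, a zinc-finger repressor that maintains the identity of tissue macrophages in mice and that T cells also express, had 6.20, 11.4, 8.85 and 6.33 CPM in Vehicle 1 to 4 and 4.10, 3.80, 5.30 and 5.19 CPM in Bexarotene 1 to 4. The highest bexarotene mouse lay below the lowest vehicle mouse. Zeb2 had only 26 counts in Bexarotene 1 and 9 in Bexarotene 2, where 1 count is 0.422 CPM. The means were 8.19 ± 2.46 and 4.60 ± 0.76 CPM (SD, n = 4), a log2 fold change of -0.77 ± 0.24 (SE, edgeR p = 0.0071, adjusted p = 0.976, exact two-sided permutation p = 0.0286). That permutation p is the smallest that 4 mice against 4 allow. Without each mouse in turn the fold change stayed between -0.87 and -0.57. An antisense gene, Zeb2os, overlaps its exons, and exons on the opposite strand also overlap those of Csf1r (Hmgxb3), Cybb (Xk), Lyz2, C1qb, C1qc, Trem2, Folr2, Arg1, F13a1 and Gpnmb. Whether the authors counted by strand is not given in the sources used here, so reads of these pairs may not be separated.

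Zeb2 and Arg1 were the only members whose 4 bexarotene mice all lay below the 4 vehicle mice, which 1.42% of all tested genes did. No member had all its bexarotene mice above the vehicle mice, which 1.41% of genes did.

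Csf1r, which carries the survival signal of macrophages, had 4.27, 11.5, 6.83 and 2.18 CPM in Vehicle 1 to 4 and 6.63, 5.07, 3.64 and 4.999 CPM in Bexarotene 1 to 4. All bexarotene values lay within the vehicle range. Its log2 fold change was -0.30 ± 0.43 (SE, edgeR p = 0.497, exact permutation p = 0.886) and became 0.18 without Vehicle 2. Spi1, which encodes PU.1, had 3.06 ± 2.20 and 2.32 ± 0.42 CPM (SD, n = 4 each), and its vehicle range of 1.51 to 6.32 CPM covered every bexarotene mouse.

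Of the 6 surface and phagocyte markers, 5 had a negative fold change and none an unadjusted p under 0.05. Adgre1, the classical F4/80 antigen, had 1.57, 4.33, 1.91 and 1.31 CPM in Vehicle 1 to 4 and 2.37, 2.11, 1.43 and 1.70 CPM in Bexarotene 1 to 4. Vehicle 2 stood above all others, and the remaining 7 mice overlapped. Its log2 fold change was -0.31 ± 0.41 (SE, edgeR p = 0.455, exact permutation p = 0.857).

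Cd68, a lysosomal membrane glycoprotein of phagocytes, had 5.44, 10.5, 7.15 and 4.19 CPM in Vehicle 1 to 4 and 3.79, 2.53, 4.66 and 6.13 CPM in Bexarotene 1 to 4. The groups overlapped, with Bexarotene 3 and 4 above Vehicle 4. Its log2 fold change was -0.56 ± 0.31 (SE, edgeR p = 0.0969, exact permutation p = 0.171) and stayed negative without each mouse in turn, between -0.77 and -0.27.

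Mpeg1, a pore-forming protein of the phagosome, had 5.96, 17.2, 7.97 and 5.83 CPM in Vehicle 1 to 4 and 7.57, 3.38, 3.74 and 6.04 CPM in Bexarotene 1 to 4. Bexarotene 1 and 4 lay above Vehicle 1 and 4. The log2 fold change was -0.80 ± 0.38 (SE, edgeR p = 0.0597, exact permutation p = 0.171), and -0.31 without Vehicle 2.

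Ms4a7, a tetraspanning membrane protein found on mature macrophages, had 1.05, 2.24, 1.15 and 0.837 CPM in Vehicle 1 to 4 and 0.947, 0.845, 0.306 and 0.802 CPM in Bexarotene 1 to 4. Vehicle 4 lay below Bexarotene 1 and 2, and the other vehicle mice lay above every bexarotene mouse. The log2 fold change was -1.003 ± 0.476 (SE, edgeR p = 0.0585, exact permutation p = 0.0857).

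Lyz2 encodes the M-type lysozyme of mouse myeloid cells, and was the marker in this group with a positive fold change. It had 10.9, 25.4, 17.4 and 7.74 CPM in Vehicle 1 to 4 and 20.04, 15.2, 17.8 and 12.7 CPM in Bexarotene 1 to 4. All bexarotene mice lay within the vehicle range, and the log2 fold change was 0.11 ± 0.33 (SE, edgeR p = 0.752, exact permutation p = 0.6). Cybb, the catalytic subunit of the phagocyte NADPH oxidase, had 3.02 ± 2.40 and 2.50 ± 1.53 CPM (SD, n = 4 each).

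**Figure D3:**
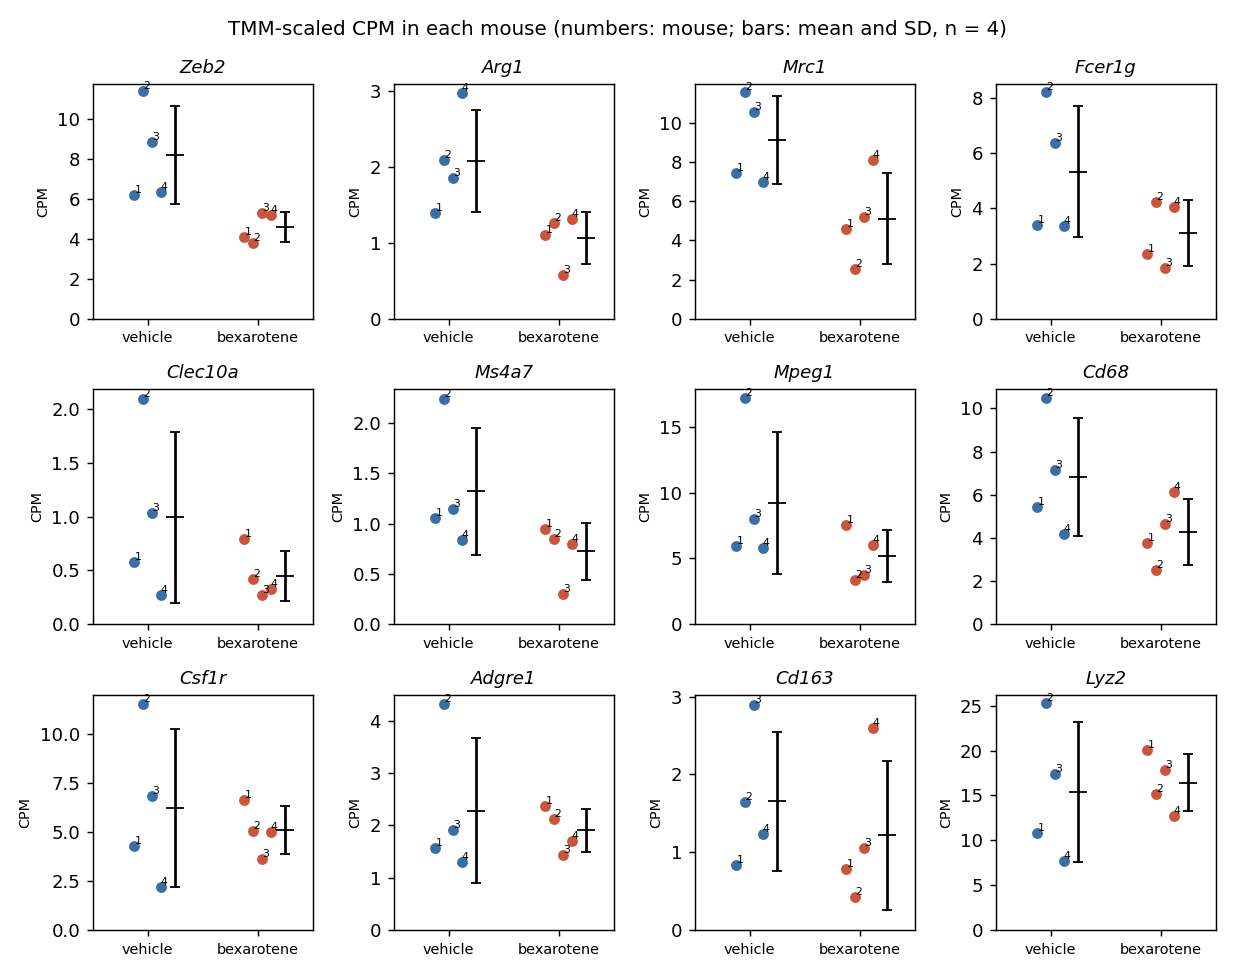
TMM-scaled CPM of 12 members in each mouse (numbered points, vehicle blue, bexarotene red), with mean and SD beside them (n = 4) and every y axis starting at 0. Zeb2 and Arg1 show no overlap between the groups, and Vehicle 2 is the highest point in most other panels.

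Lysosomal proteases were abundant and overlapped between the groups. Ctss, the cathepsin that trims the invariant chain of MHC class II, had 7.65, 19.7, 10.7 and 5.79 CPM in Vehicle 1 to 4 and 14.7, 13.5, 4.93 and 6.98 CPM in Bexarotene 1 to 4. Bexarotene 1 and 2, the shallowest libraries, were the highest of their group. Its log2 fold change was -0.21 ± 0.43 (SE, edgeR p = 0.635, exact permutation p = 0.8286).

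Lgmn, the asparaginyl endopeptidase legumain, had 13.2, 25.2, 14.9 and 9.58 CPM in Vehicle 1 to 4 and 11.99, 10.98, 6.63 and 14.4 CPM in Bexarotene 1 to 4. Only Bexarotene 3 lay below every vehicle mouse. Its log2 fold change was -0.52 ± 0.32 (SE, edgeR p = 0.128, exact permutation p = 0.314).

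The complement C1q chains A, B and C form the recognition unit of the classical pathway, and their genes lie side by side on chromosome 4. C1qa had 3.18, 8.85, 5.24 and 1.61 CPM in Vehicle 1 to 4 and 4.26, 6.34, 1.56 and 3.54 CPM in Bexarotene 1 to 4. C1qb had 4.33, 16.3, 7.04 and 2.41 CPM in the vehicle mice and 7.41, 6.34, 3.03 and 6.18 CPM in the bexarotene mice. For C1qc the values were 4.67, 12.5, 4.59 and 1.98 CPM, then 5.05, 3.80, 2.28 and 4.999 CPM. All 3 chains were highest in Vehicle 2 and lowest in Vehicle 4 or Bexarotene 3, so the vehicle group spanned nearly the whole range.

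Their log2 fold changes were -0.43 ± 0.52 for C1qa, -0.43 ± 0.52 for C1qb and -0.57 ± 0.50 for C1qc (SE, edgeR p = 0.431, 0.426 and 0.278, exact permutation p = 0.8, 0.914 and 0.714). Without Vehicle 2 these became 0.065, 0.28 and 0.085. Within the summed C1q counts of a mouse, C1qb took 40.2 ± 3.35% in vehicle and 42.2 ± 2.71% in bexarotene mice, C1qc 32.9 ± 4.56% and 30.1 ± 4.96%, and C1qa 26.9 ± 3.13% and 27.7 ± 7.27% (SD, n = 4). The summed C1q CPM ran from 5.99 in Vehicle 4 to 37.6 in Vehicle 2, while the C1qb share ran from 35.6% to 44.3% over the 8 mice. Bexarotene 2 had only 39 C1q counts, and its C1qa share of 38.5% has a 95% Wilson interval of 24.9 to 54.1%, which covers counting error only.

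**Figure D4:**
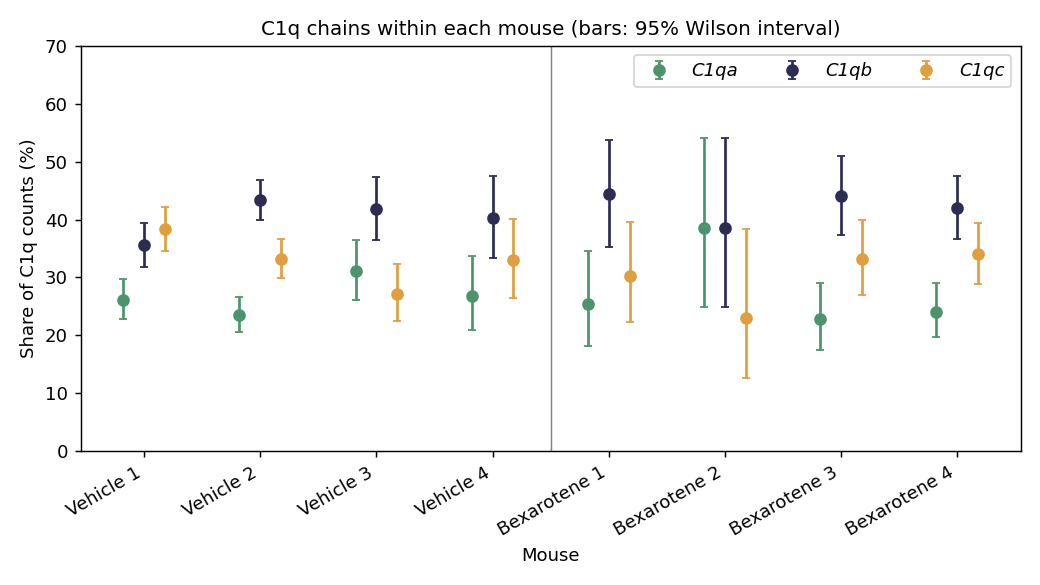
Share of each C1q chain in the summed C1q counts of each mouse (y axis, %), with 95% Wilson intervals. C1qb lies between 35.6% and 44.3% in all mice, and the intervals are widest in Bexarotene 2, which had 39 C1q counts.

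All 4 Fc receptors and adaptors had negative fold changes. Fcer1g, the signalling gamma chain of Fc receptors, had 3.40, 8.21, 6.39 and 3.35 CPM in Vehicle 1 to 4 and 2.37, 4.22, 1.84 and 4.06 CPM in Bexarotene 1 to 4. Vehicle 2 and 3 stood above the other 6 mice, which overlapped. The log2 fold change was -0.83 ± 0.38 (SE, edgeR p = 0.0486, adjusted p = 0.976, exact permutation p = 0.171).

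Fcgr1, the high-affinity IgG receptor, had 1.08 ± 0.55 and 0.819 ± 0.370 CPM, and Fcgr3, a low-affinity activating IgG receptor, 2.96 ± 1.49 and 2.05 ± 0.25 CPM (SD, n = 4 each). Both were far higher in Vehicle 2 than in the other vehicle mice, and their fold changes without it were -0.040 and -0.081 on the log2 scale. Fcgr3 has close relatives in Fcgr2b and Fcgr4, so its reads are uncertain where the sequences match. Tyrobp, the DAP12 adaptor that signals for Trem2, had 2.69 ± 1.45 and 2.11 ± 1.49 CPM (SD, n = 4 each).

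Pattern and scavenger receptors did not share the negative sign, with 3 of 4 positive. Cd14, the co-receptor for lipopolysaccharide, had the largest positive fold change of the tested members. Its levels were 1.07, 1.09, 0.601 and 2.11 CPM in Vehicle 1 to 4 and 4.26, 2.11, 1.56 and 0.896 CPM in Bexarotene 1 to 4. The high mean of the bexarotene group came mainly from Bexarotene 1, and the log2 fold change was 0.72 ± 0.51 (SE, edgeR p = 0.183, exact permutation p = 0.257).

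Msr1, the class A scavenger receptor, had 1.76 ± 0.45 and 1.56 ± 0.54 CPM (SD, n = 4 each). Marco, a related scavenger receptor, ranged from 0.167 to 1.44 CPM in vehicle mice and from 0 to 1.33 CPM in bexarotene mice. The 0 was in Bexarotene 2, where 1 count is 0.422 CPM and 3 counts would be 1.27 CPM. A level up to about 1.27 CPM can therefore not be excluded in that mouse. Trem2, a lipid-sensing receptor of phagocytes, had 0.525 ± 0.440 and 0.619 ± 0.441 CPM (SD, n = 4 each).

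Sirpa, the receptor that receives the CD47 signal against engulfment, had 11.1 ± 7.27 and 10.5 ± 3.66 CPM. Cd84, a homophilic adhesion receptor of the SLAM family that lymphocytes also carry, had 2.79 ± 0.52 and 3.05 ± 1.11 CPM (SD, n = 4 each). Both groups overlapped for both genes.

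Of the M2-like members, 6 of 9 passed the filter, 4 of them lower and 2 higher, with a median log2 fold change of -0.39, beside -0.37 for the 24 other members. Mrc1, the mannose receptor CD206, had 7.45, 11.5, 10.5 and 6.998 CPM in Vehicle 1 to 4 and 4.57, 2.53, 5.20 and 8.11 CPM in Bexarotene 1 to 4. Bexarotene 4 lay above Vehicle 1 and Vehicle 4, and the other 3 bexarotene mice lay below every vehicle mouse. Mrc1 had only 29 counts in Bexarotene 1 and 6 in Bexarotene 2. The means were 9.13 ± 2.25 and 5.11 ± 2.31 CPM (SD, n = 4), and the log2 fold change was -0.72 ± 0.28 (SE, edgeR p = 0.0266, adjusted p = 0.976, exact permutation p = 0.0857).

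Arg1, the enzyme that splits arginine into ornithine and urea, had 1.39, 2.09, 1.86 and 2.98 CPM in Vehicle 1 to 4 and 1.10, 1.27, 0.578 and 1.32 CPM in Bexarotene 1 to 4. The groups did not overlap, though Vehicle 1 was close to Bexarotene 2 and 4. Arg1 had only 7 counts in Bexarotene 1 and 3 in Bexarotene 2. In Bexarotene 2, 1 count is 0.422 CPM, so the separation there rests on single reads. Unlike most members, Arg1 was highest in Vehicle 4 and not in Vehicle 2. The means were 2.08 ± 0.67 and 1.07 ± 0.34 CPM (SD, n = 4), with a log2 fold change of -1.04 ± 0.37 (SE, edgeR p = 0.0169, adjusted p = 0.976, exact permutation p = 0.0286). It was -1.04 without Vehicle 2 and -0.72 without Bexarotene 3.

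Cd163, the haemoglobin-haptoglobin scavenger receptor, had 0.834, 1.64, 2.89 and 1.24 CPM in Vehicle 1 to 4 and 0.789, 0.422, 1.05 and 2.59 CPM in Bexarotene 1 to 4. Vehicle 3 and Bexarotene 4 were the highest, 1 in each group. The log2 fold change was -0.19 ± 0.50 (SE, edgeR p = 0.716, exact permutation p = 0.4), and it turned to 0.18 without Vehicle 3.

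Clec10a, a galactose-type lectin, had 0.576, 2.09, 1.04 and 0.268 CPM in Vehicle 1 to 4 and 0.789, 0.422, 0.272 and 0.330 CPM in Bexarotene 1 to 4. The groups overlapped, and the unfiltered log2 fold change was -1.26 ± 0.63 (SE, edgeR p = 0.0566, exact permutation p = 0.286). Mgl2, its near-identical neighbour on chromosome 11, stayed at or under 0.631 CPM, and reads may be split between this pair. Folr2, the folate receptor beta of resident macrophages, had 0.627 ± 0.470 and 0.881 ± 0.708 CPM (SD, n = 4 each).

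F13a1, the A subunit of coagulation factor XIII, had 8.77 ± 4.66 and 5.38 ± 2.34 CPM and a log2 fold change of -0.59 ± 0.37 (SE, edgeR p = 0.141, exact permutation p = 0.314). Gpnmb, a glycoprotein that melanocytes also make, had 5.62 ± 5.25 and 6.11 ± 2.38 CPM (SD, n = 4 each). Its highest value, 13.3 CPM, was in Vehicle 2, which also had the highest melanocyte marker sum. Ccl24, an eosinophil-attracting chemokine, stayed at or under 0.422 CPM.

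**Figure D5:**
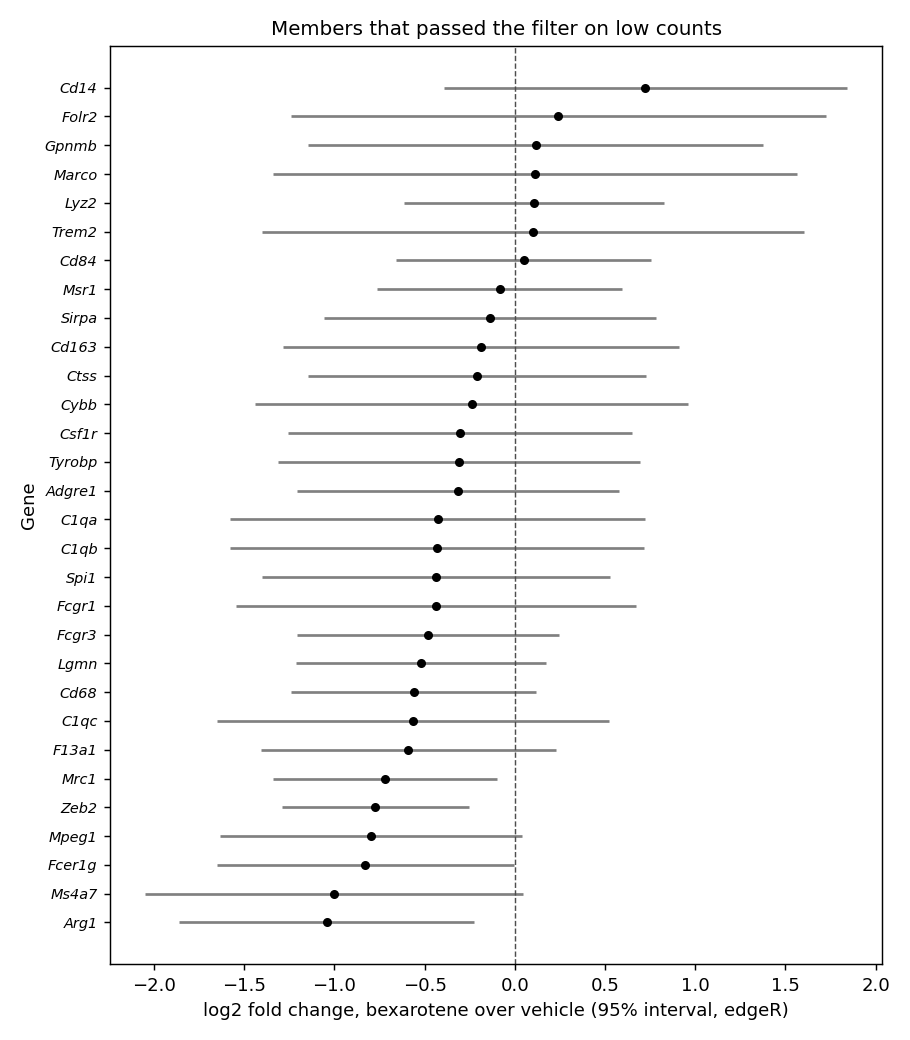
Log2 fold change of bexarotene over vehicle for the 30 tested members (points) with 95% intervals from edgeR (lines), ordered by size, from -1.04 for Arg1 to 0.72 for Cd14. The intervals of Arg1, Fcer1g, Zeb2 and Mrc1 lie below 0 before adjustment for 11616 genes.

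Dividing each member by the summed member counts of its mouse removes the overall level of Vehicle 2. On this measure, added after seeing the data, Mpeg1 and Ms4a7, 2 of the 33 members, lay lower in all 4 bexarotene mice. All tested genes divided by the same sum gave 0.0689%, which is no baseline for the members, since they are part of that sum. The raw sum was highest in Vehicle 1, at 5859 counts. As TMM-scaled CPM it was highest in Vehicle 2, at 275 CPM. The share of Mpeg1 was 5.12, 6.23, 5.15 and 6.30% across Vehicle 1 to 4 and 4.85, 2.83, 3.76 and 4.84% across Bexarotene 1 to 4. Mpeg1 had only 48 counts in Bexarotene 1 and 8 in Bexarotene 2, and Bexarotene 1 was close under Vehicle 1, so a few reads decide this separation. Ms4a7 took 0.841 ± 0.080% and 0.566 ± 0.177% (SD, n = 4). It had only 6 counts in Bexarotene 1 and 2 in Bexarotene 2, so its separation rests on single reads. The share of Ms4a7 was 0.707% in Bexarotene 2, close under the lowest vehicle share of 0.741% in Vehicle 3. Zeb2, at 5.51 ± 1.12% and 3.82 ± 1.19%, and Arg1, at 1.59 ± 1.11% and 0.852 ± 0.246%, overlapped here. Lyz2 took 9.54 ± 1.22% and 13.4 ± 3.25%, with Vehicle 3 inside the bexarotene range. M2-like members together took 18.7 ± 1.52% and 16.7 ± 4.02%.

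Other genes of these pathways passed no test either. Of 10 tested partners of the C1q, Fc and adaptor genes, 10 had negative fold changes, beside 53.5% of all genes, and none had an unadjusted p under 0.05. Like the members, the 11 listed partners were highest in Vehicle 2, with a sum of 142 CPM against 69.3 to 119 CPM in the other mice. Their signs without Vehicle 2 were not examined. The most abundant of these, phospholipase Plcg2 and complement C3, had 43.8 ± 9.37 and 38.4 ± 7.67 CPM, and 22.8 ± 14.2 and 17.5 ± 5.47 CPM (SD, n = 4 each). Among 4 tested monocyte recruitment genes 2 were higher and 2 lower. Ly6c2, the most abundant of them, had 3.73 ± 1.36 and 7.12 ± 10.2 CPM (SD, n = 4 each). Its log2 fold change was 1.10 (edgeR p = 0.153, adjusted p = 0.976, exact permutation p = 0.943). The high bexarotene mean came from Bexarotene 3, at 22.4 CPM, while the other bexarotene mice had 0.947 to 2.55 CPM. Ccr2, the receptor that brings monocytes from blood to tissue, had 1.55, 2.04, 2.18 and 1.51 CPM in Vehicle 1 to 4 and 0.789, 0.845, 1.46 and 0.613 CPM in Bexarotene 1 to 4. The bexarotene mice all lay below the vehicle mice, which 1.42% of all tested genes did (log2 fold change -0.88, edgeR p = 0.0261, adjusted p = 0.976, exact permutation p = 0.0286). Ccr2 had only 5 counts in Bexarotene 1 and 2 in Bexarotene 2, and Bexarotene 3 was close to Vehicle 4.

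Of 7 other tested M2-like genes, 5 had negative and 2 positive fold changes. Tgfbi, a matrix protein induced by transforming growth factor beta, had 13.4 ± 4.90 and 8.91 ± 1.38 CPM (SD, n = 4, edgeR p = 0.0496, exact permutation p = 0.171). Retnla, a resistin-like M2 marker of mice, was below the filter, at 0 to 0.149 CPM in vehicle and 0.0943 to 0.845 CPM in bexarotene mice (fit without the filter, edgeR p = 0.0188, adjusted p = 0.832, exact permutation p = 0.0857). Its reads were so few that no library held more than 4. The highest level, 0.845 CPM, came from 2 reads of the shallow Bexarotene 2. The next, 0.631 CPM, came from 4 reads of the shallow Bexarotene 1, so this difference rests on single reads. Of 5 tested M1-like genes, 3 had negative and 2 positive fold changes. Nos2, the inducible nitric oxide synthase, had a log2 fold change of -0.019, at 4.06 ± 2.23 and 4.49 ± 2.26 CPM (SD, n = 4 each).

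Growth factors and polarising signals overlapped between the groups. Csf1 had 2.35 ± 0.37 and 2.47 ± 1.56 CPM, and Il34, the other Csf1r ligand, 0.237 ± 0.209 and 0.0491 ± 0.0568 CPM (SD, n = 4 each). Il4 was at 0 in every library. The Th1 chemokine Cxcl9 had 2.91 ± 2.13 and 2.25 ± 0.49 CPM, Cxcl10 0.921 ± 0.563 and 1.06 ± 1.55 CPM, and the Th2 chemokine Ccl22 0.218 ± 0.119 and 0.200 ± 0.170 CPM (SD, n = 4 each). Ccl17 had 0 counts in all mice, and Cxcl11 was seen in Vehicle 1 only. Of 7 tested macrophage transcription factors, 5 had negative and 2 positive fold changes, with Cebpb at 5.94 ± 1.40 and 8.35 ± 3.64 CPM (SD, n = 4 each). Irf8 was not analysed here.

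Neutrophils share Fcer1g, Tyrobp, Cybb and other members, and their markers were low. The 12 neutrophil markers summed to 5.79 to 8.37 CPM in vehicle mice and 0.845 to 5.90 CPM in bexarotene mice. Ly6g, Camp, Elane and Mpo had 0 counts everywhere. Of 5 tested, 4 had negative fold changes. Csf3r had 2.29 ± 0.32 and 1.71 ± 0.68 CPM, S100a9 1.16 ± 0.43 and 0.528 ± 0.395 CPM, and Cxcr2 0.689 ± 0.174 and 0.283 ± 0.329 CPM (SD, n = 4 each). Mmp9, whose fold change was positive, had 1.40 ± 0.49 and 1.32 ± 1.01 CPM (SD, n = 4 each). S100a8, a calcium-binding protein abundant in neutrophils that monocytes also make, had 0.576, 0.746, 0.546 and 1.005 CPM in Vehicle 1 to 4 and 0, 0, 0.272 and 0.472 CPM in Bexarotene 1 to 4, with no overlap (log2 fold change -1.34, edgeR p = 0.0371, adjusted p = 0.976, exact permutation p = 0.0286). In the shallow Bexarotene 1 and 2, 3 counts would be 0.473 and 1.27 CPM. Of all tested genes, 1.42% had every bexarotene mouse below every vehicle mouse. The 10 dendritic cell markers, whose cells also express Zeb2, Spi1 and Ctss, summed to 2.48 to 7.61 CPM and 2.69 to 7.10 CPM. All 8 keratinocyte markers had negative fold changes, beside 53.5% of all genes, and 0 had an unadjusted p under 0.05. Their sum ran from 1.37 CPM in Vehicle 4 to 390 CPM in Vehicle 2, a range that covered the bexarotene mice, at 43.1 to 143 CPM. Fibroblast markers summed to 299 to 843 CPM in vehicle mice and 420 to 1707 CPM in bexarotene mice, highest in Bexarotene 2. Col1a1 alone had 1184 CPM in that mouse. By sign, 5 of the 8 fibroblast markers were lower with bexarotene and 3 higher, with a median log2 fold change of -0.46. The part of these cells in the members' values was not tested.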

How the data were processed

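Total RNA of EL4-inoculated mouse skin was depleted of ribosomal RNA and sequenced from directional libraries. Per the submitters' processing notes, which name Trimmomatic 0.30, FastQC 0.11.9, HISAT2 2.0.1, HTSeq 0.6.1 and the build GRCm39, the authors deposited whole-number counts of reads per gene. The deposited counts were not normalized.

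Counts were fitted here in R 4.3.3 with edgeR 4.0.16 (filterByExpr with a minimum count of 10 and total of 15, TMM scaling, quasi-likelihood test, no covariates, Benjamini-Hochberg adjustment over all genes tested, threshold 0.05). CPM were counts over TMM-scaled library sizes, and TPM used the lengths in the table over genes that GENCODE annotates as protein-coding. Log2 CPM used a prior count of 2. Exact permutation tests ran over 70 assignments of 4 against 4 mice. Low depth, 8518428 to 24020342 counts of which 4.02% to 19.0% were protein-coding, limits precision. Fits with other scalings, filters, DESeq2 1.42.0, limma 3.58.1, a replicate block and left-out mice were compared, and the script was tested on simulated data.

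The members and lists were chosen with earlier results of these data known. Values in every mouse are given for the 8 members with the smallest unadjusted p, the 6 with the highest TPM, the C1q chains, Arg1, Mrc1, Cd163, Csf1r and Adgre1, and for other genes that were singled out after their values were seen (Cd14, Ccr2). Pathway genes outside the members are named where the unadjusted p was under 0.05 or where they were among the most abundant of their list. Others are named as chemokines the study measured or as ligands that act on Csf1r. Ly6g, Camp, Elane and Mpo are named as neutrophil markers without a count. S100a8, S100a9, Csf3r, Cxcr2, Mmp9 and Col1a1 were named after their values were seen. The values of 1 gene of these lists are not reported here.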

Additional observations from a re-analysis of the deposited data

Results flagged for a closer look

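In 2 of the 66 groups of 4 mice examined, 33 members in each treatment group, the highest mouse lay further from the others than Dixon's 95% critical value for 4 values allows. Fcgr1 had 1.89 CPM in Vehicle 2 and 0.703 to 0.874 CPM in the other vehicle mice. Fcgr3 had 5.17 CPM in Vehicle 2 and 2.02 to 2.41 CPM in the other vehicle mice. Chance alone marks about 1 group in 20. Both genes encode IgG receptors, and Vehicle 2 was the highest vehicle mouse for 26 of the 33 members.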

How the results depend on the processing

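No member and no gene had an adjusted p under 0.05 under any alternative run. Of the 33 members, 13 kept the sign of their fold change in every alternative that gave a value. Among them were Zeb2, Arg1, Mrc1, Fcer1g, Cd68, Mpeg1 and Ms4a7, each with 19 or 20 such values. The 13 also include Clec10a, with 8 values, and Mgl2, with 2 values and none from a refit, so their signs were hardly tried. The count of members with an unadjusted p under 0.05, 4 as reported, was 2 with total counts as the only scaling, 7 without the filter, 1 with at least 10 counts in every mouse, 1 with limma-voom and 1 without both shallow bexarotene libraries, and ran from 1 (without Bexarotene 3) to 8 (without Vehicle 4) with each mouse left out. Genes overall with such a p numbered 80 with total counts only, 957 without the filter, 211 with at least 10 counts in every mouse and 200 without both shallow libraries, against 428, and 203 to 914 with each mouse left out. The median of the members ran from -0.58 without Vehicle 4 to 0.07 without Vehicle 2, and was -0.98 with total counts only, where the median of all genes moved to -0.66.

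Fold changes (log2) that reversed sign are given by alternative. With total counts only they were Lyz2 -0.39, Cd14 -0.25, Marco -0.15, Trem2 -0.59, Cd84 -0.81, Folr2 -0.56 and Gpnmb -0.37. With limma-voom they were Cybb 0.075, Msr1 0.20, Cd84 -0.12, Cd163 0.41 and Folr2 -0.0072. Without both shallow libraries they were Trem2 -0.39, Cd84 -0.19, Cd163 0.18, Folr2 -0.64 and Gpnmb -0.030. Marco was -0.018 with DESeq2, -0.0065 with its prior and -0.48 as the difference of mean log2 CPM in the permutation test, where Sirpa was 0.062. As a share among the other members, an alternative added after seeing the data, they were Spi1 0.092, Csf1r 0.20, Adgre1 0.17, Cybb 0.18, Ctss 0.16, C1qa 0.10, C1qb 0.15, Msr1 0.12, Sirpa 0.34 and Ccl24 0.20. The causes were not tested.

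With a replicate block, 0 members were called, 3 had an unadjusted p under 0.05, the median was -0.13, and Cybb (0.13) and Sirpa (0.086) reversed. Deviations of mice with the same number correlated at -0.077, -0.090, -0.073 and 0.0015, so they gave no sign that the numbers pair the mice. Such correlations over all genes cannot exclude a shared cage or day.

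With each mouse left out, the lowest and highest values of the members that reversed were -0.65 and 0.18 for Spi1, -0.58 and 0.18 for Csf1r, -0.49 and 0.19 for Adgre1, -0.67 and 0.44 for Cybb, -0.10 and 0.46 for Lyz2, -0.51 and 0.23 for Ctss, -0.70 and 0.065 for C1qa, -0.71 and 0.28 for C1qb, -0.84 and 0.085 for C1qc, -0.79 and 0.12 for Tyrobp, -0.37 and 0.40 for Sirpa, -0.54 and 0.63 for Marco, -0.39 and 0.70 for Trem2, -0.10 and 0.38 for Cd84, -0.89 and 0.18 for Cd163, -0.21 and 0.086 for Msr1, -0.47 and 0.76 for Folr2 and -0.18 and 0.97 for Gpnmb. The highest value came without Vehicle 2 for all of these except Cd84, Cd163 and Msr1.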
